A study of Homo sapiens with 6 samples.

Results

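The genes described here are the BCL2 family, the caspases and the regulators that switch them on or hold them back in human colorectal cancer cells. They were chosen as 36 named genes by symbol, with earlier results of these data known, so shares of members beside all genes are descriptions. The deposited table gave 35 of them a single row out of 13021 gene identifiers with a single row. Of the 35, 34 were listed in all 3 cell lines, out of 10875 genes listed in all 3. HRK was listed in HCT116 and SW480 but not in HT29, where a blank stands for 20 reads or fewer over both libraries, and TNFSF10 was not analysed here. By textbook role, 7 of the 35 are pro-survival, 22 are pro-death and 6 were placed on neither side. The study asked which genes and pathways are altered when BZW2 is knocked down. RNA was sequenced from HCT116, HT29 and SW480, established human colorectal cancer lines. The sample titles write the first line as HCT116WT and its cell line label as HCT116, the form used here. Each line had been infected with a lentivirus carrying either a BZW2 shRNA (a short hairpin RNA that lowers the target transcript) or a non-targeting shRNA. Stable cells of both kinds were then selected in puromycin at 1 µg/ml, so the control cells also carry a lentivirus and were also selected. Each line and treatment gave 1 library, 6 in all.

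Apoptosis is a form of programmed cell death carried out by caspases, proteases that cut many cellular proteins. In the mitochondrial route, BH3-only proteins sense stress and set free the pore formers BAX and BAK1, which pro-survival BCL2 proteins otherwise restrain. Pores in the outer mitochondrial membrane release cytochrome c, which assembles with APAF1 into the apoptosome and activates caspase-9. In the second route, death receptors at the cell surface recruit FADD and caspase-8. Inhibitor of apoptosis proteins act further down and block caspases or the complexes that activate them. In the intestinal epithelium this machinery removes damaged cells, and colorectal tumours commonly resist it.

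Over the listed genes the shallowest library was that of HCT116 knockdown cells, at 2187373 reads, and the deepest that of HT29 control cells, at 9317444. The HCT116 knockdown library stood apart, with fewer reads than its control (5640626) and with 129 listed genes at 0. Across all genes the SD of the log2 ratio of knockdown over control was 1.58 in HCT116, against 0.67 in HT29 and 0.70 in SW480. The targeted gene BZW2 went from 530 to 29 reads in HCT116, from 1590 to 133 in HT29 and from 456 to 77 in SW480. On the CPM scale it stood at 17.6%, 8.69% and 13.5% of control, and its log2 fold change across lines was -2.92 (SE 0.40; adjusted limma p 0.155). Of 10 intestinal epithelial markers, 6 had a row and were listed in all 3 lines (EPCAM, CDH1, KRT8, KRT18, KRT19 and CDX2). Their summed level went from 3783 to 14587 CPM in HCT116, from 10414 to 9030 in HT29 and from 6725 to 6557 in SW480. KRT8, KRT18 and KRT19 made up most of each sum, and the markers did not share a direction. In HCT116 KRT8, KRT18, KRT19 and CDX2 were higher in knockdown cells, while EPCAM and CDH1 were lower in all 3 lines. In HCT116, HT29 and SW480 the log2 ratios were -0.53, -0.23 and -0.29 for EPCAM. For CDH1 they were -1.1, -0.78 and -1.61. No marker of blood cells or endothelium had a row, and of the fibroblast markers only COL1A1 had one, with 10 to 26 reads in HCT116 and SW480.

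Levels below are CPM, the reads of a gene scaled to a fixed library total, after TMM scaling. That scaling sets the control and knockdown library of a line on a common scale through the bulk of their genes. It was done within each line, so levels of different lines are not on a common scale. Ratios are knockdown over control within a line, and the interval given with a fold is an exact Clopper-Pearson 95% interval that covers counting error only. A log2 fold change across lines is the estimate from limma on log2 of the deposited value plus 1, with its standard error (SE) and n = 3 lines. That SE is moderated: limma draws the variance of each gene towards that of genes of similar level. It is therefore not the spread of that gene alone over the lines. In bulk RNA, fewer cells expressing a gene and less RNA per cell cannot be told apart.

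No member passed the adjusted threshold across the 3 lines. With limma and Benjamini-Hochberg adjustment, 0 of 34 members and 0% of all 10875 genes tested had an adjusted p under 0.05. The lowest adjusted p of a member was 0.325, that of BAX. By edgeR, DESeq2 and limma-voom on the recovered reads the number of members called was also 0, where DESeq2 called 2.24% of all genes. The shares of all genes called by edgeR and limma-voom are not given here, so their counts say nothing particular to the members. At an unadjusted limma p under 0.05, 4 members were higher (BAX, BAK1, BCL2L12 and CASP6; 11.8% of members against 6.59% of all genes) and 1 was lower (BMF; 2.9% against 7.04%). The log2 fold change was positive for 23 members and negative for 11 (51.1% of all genes were positive), with a median of 0.18 against 0.02 for all genes.

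Direction over the lines gave a similar split. In all 3 lines, 12 members were higher in knockdown cells (35.3%, against 22.3% of all genes) and 8 were lower (23.5%, against 21.1%). The 12 were BAX, BAK1, BOK, BID, BAD, BCL2L12, CASP2, CASP6, HTRA2, TNFRSF10A, FADD and TRADD. The 8 were BMF, BCL2L11, BCL2L13, CASP10, XIAP, BIRC2, BIRC6 and TNFRSF10B. The other 14 differed in direction between lines. BIRC2 in SW480 lay so close to control that its sign turned under library size scaling and under the deposited scaling. After correction for GC content and transcript length, described further on, 11 were higher and 7 were lower in all 3 lines, beside 28.1% and 16.9% of all genes under the same correction. BOK, BAD and TRADD left the first group, CYCS and CFLAR joined it, and BIRC6 left the second.

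A 2-fold ratio, with at least 5 CPM in the higher library, was reached mostly in HCT116. There 11 of 34 members were at least 2-fold higher (32.4%, against 26.8% of all genes) and 6 were at least 2-fold lower (17.6%, against 28.8%). In HT29 3 of 33 were higher (9.09%, against 3.74%), namely BCL2L12, CASP6 and APAF1, and 1 was lower (3.03%, against 6.17%), namely TNFRSF10B. In SW480 BAX was the 1 member of 33 that was higher (3.03%, against 4.98%), and 0 were lower (0%, against 7.36%). BAX and BCL2L12 were past 2-fold higher in 2 of the 3 lines, and APAF1 was past 2-fold in opposite directions in HCT116 and HT29. The HCT116 counts depended on the scaling. Under library size scaling 6 members were at least 2-fold higher (17.6%, against 19.8% of all genes) and 10 lower (29.4%, against 35.7%). After the GC and length correction 7 were higher (20.6%, against 20.7%) and 1 was lower (2.94%, against 14.8%). In SW480 2 members were higher under each (6.06%, against 5.72% under library size scaling and 5.44% after the correction).

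**Figure D1:**
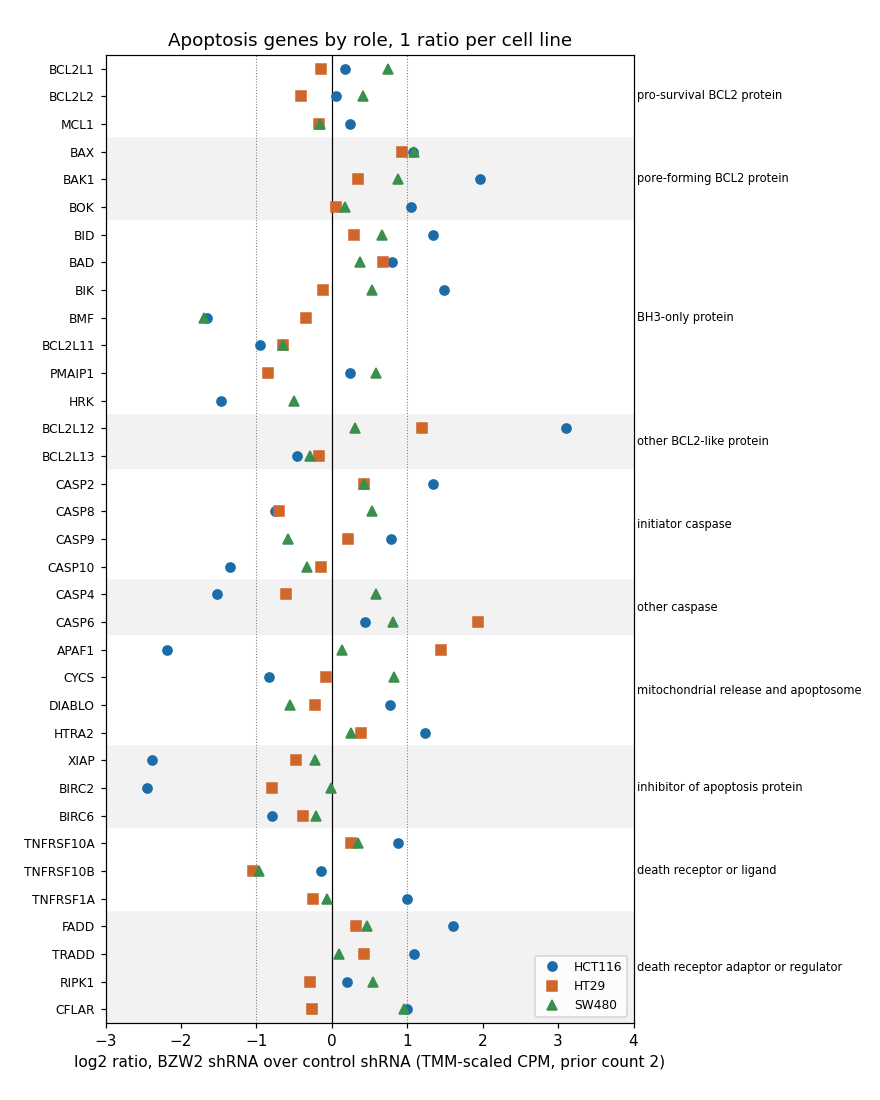
Log2 ratio of knockdown over control (TMM-scaled CPM) for each member on the horizontal axis, 1 marker per cell line, with members grouped by role on the vertical axis. HCT116 points spread the most, from -2.45 for BIRC2 to 3.11 for BCL2L12, while the 3 points of BAX lie between 0.93 and 1.09.

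The unadjusted limma p was under 0.05 for 11.8% of members as higher (6.59% of all genes) and 2.9% as lower (7.04%). No member passed the adjusted threshold. The promoters of the 5 members picked by that unadjusted cut are shown. Each is the 250 bases before the RefSeq gene start on GRCh38.p14, 5′ to 3′ on the gene's strand. They lie at chr19:48954625-48954874 (plus strand) for BAX, chr6:33580277-33580526 (minus) for BAK1, chr4:109703446-109703695 (minus) for CASP6, chr19:49664892-49665141 (plus) for BCL2L12 and chr15:40108880-40109129 (minus) for BMF. Capitals mark matches, on either strand, to the motifs named after the sequences.
BAX: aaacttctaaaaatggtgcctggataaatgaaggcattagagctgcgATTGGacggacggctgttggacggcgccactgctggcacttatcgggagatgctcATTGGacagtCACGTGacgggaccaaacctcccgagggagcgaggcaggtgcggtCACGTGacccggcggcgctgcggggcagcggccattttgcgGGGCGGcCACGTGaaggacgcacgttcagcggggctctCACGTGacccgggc
BAK1: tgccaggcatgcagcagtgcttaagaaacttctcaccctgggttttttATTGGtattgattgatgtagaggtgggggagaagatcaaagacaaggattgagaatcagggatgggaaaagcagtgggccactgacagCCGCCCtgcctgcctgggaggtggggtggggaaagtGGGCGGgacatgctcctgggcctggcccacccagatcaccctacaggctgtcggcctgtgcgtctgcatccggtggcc
CASP6: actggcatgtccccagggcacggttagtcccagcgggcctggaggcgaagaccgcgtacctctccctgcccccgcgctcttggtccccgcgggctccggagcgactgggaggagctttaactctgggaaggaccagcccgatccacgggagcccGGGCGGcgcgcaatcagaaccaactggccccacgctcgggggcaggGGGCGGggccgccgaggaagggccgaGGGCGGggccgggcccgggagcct
BCL2L12: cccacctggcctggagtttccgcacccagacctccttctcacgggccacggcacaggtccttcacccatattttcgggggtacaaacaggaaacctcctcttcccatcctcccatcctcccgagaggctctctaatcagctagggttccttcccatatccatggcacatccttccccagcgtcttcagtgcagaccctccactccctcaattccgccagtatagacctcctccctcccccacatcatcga
BMF: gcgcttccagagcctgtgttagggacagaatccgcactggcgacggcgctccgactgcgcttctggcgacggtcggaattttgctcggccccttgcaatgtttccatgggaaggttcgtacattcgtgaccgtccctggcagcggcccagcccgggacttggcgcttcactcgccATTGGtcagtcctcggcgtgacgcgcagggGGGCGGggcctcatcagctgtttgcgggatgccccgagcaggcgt

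Motifs were searched on both strands of the 250 bases in 28 members that matched the RefSeq promoter table and in all 35116 promoters of that table. The E-box CACGTG, a sequence bound by MYC and USF proteins, had 4 matches in BAX, starting 138, 93, 45 and 14 bases before the gene start. BAX was the 1 member of 28 with this motif (3.57%), which 6.34% of all promoters hold. The CCAAT box (CCAAT) was in 12 members (42.9%, against 32% of all promoters) and the GC box (GGGCGG) in 21 (75%, against 42.6%). CASP6 held 3 GC boxes, BAK1 held 2, BAX and BMF held 1 each, and BCL2L12 matched none of the motifs. The E2F motif (TTTCCCGC, TTTGGCGC or TTTCGCGC) was in 0 members, against 2.32% of all promoters. TTTGAA, the cell cycle homology element, was in 1 (BOK; 13.3% of all promoters), and TGATGNAA, the composite site of ATF4 and CHOP, was in 1 (HRK; 3.14%). An E2F match can share letters with a GC box, and GC boxes can run into each other, but no 2 matches overlapped in the 5 promoters shown. A match is a description of the letters and not a binding site.

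Among the pore formers, BAX and BAK1 were higher in knockdown cells of all 3 lines. BAX, which inserts into the outer mitochondrial membrane, went from 21.9 to 46.5 CPM in HCT116, from 36.4 to 69.7 in HT29 and from 31.9 to 68.1 in SW480. Levels were scaled within each line, so overlap between the groups over lines was not assessed. The folds were 2.12 (1.61 to 2.79), 1.91 (1.67 to 2.19) and 2.14 (1.78 to 2.58), the narrowest spread over lines among the 5 members with an unadjusted p under 0.05. The log2 fold change was 1.07 (SE 0.38), with an unadjusted limma p of 0.0188 and an adjusted p of 0.325. After the GC and length correction it was 0.69, with ratios of 0.37, 0.78 and 1.06 in HCT116, HT29 and SW480. With that correction and without HCT116 it was 0.88, with an adjusted limma p of 0.0373. Over all alternatives the adjusted p of BAX ran from 0.0373 to 1.00.

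BAK1, the second pore former, went from 14.4 to 57.7 CPM in HCT116, from 40.1 to 51.1 in HT29 and from 16.1 to 29.9 in SW480. As for BAX, overlap between the groups over lines was not assessed. The folds were 4.0 (3.01 to 5.33), 1.27 (1.11 to 1.46) and 1.86 (1.43 to 2.45). Across lines BAK1 was at 1.11 (SE 0.45) by log2 fold change, with an adjusted limma p of 0.351, and 0.65 without HCT116. BOK, a pore former that acts without the usual restraint by pro-survival proteins, went from 25.7 to 53.6 CPM in HCT116, from 36 to 37.6 in HT29 and from 23.1 to 26.2 in SW480. Its log2 fold change was 0.47 (SE 0.41), 0.15 without HCT116 and -0.09 after the GC and length correction, with ratios of -0.25 in HCT116 and -0.09 in HT29.

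**Figure D2:**
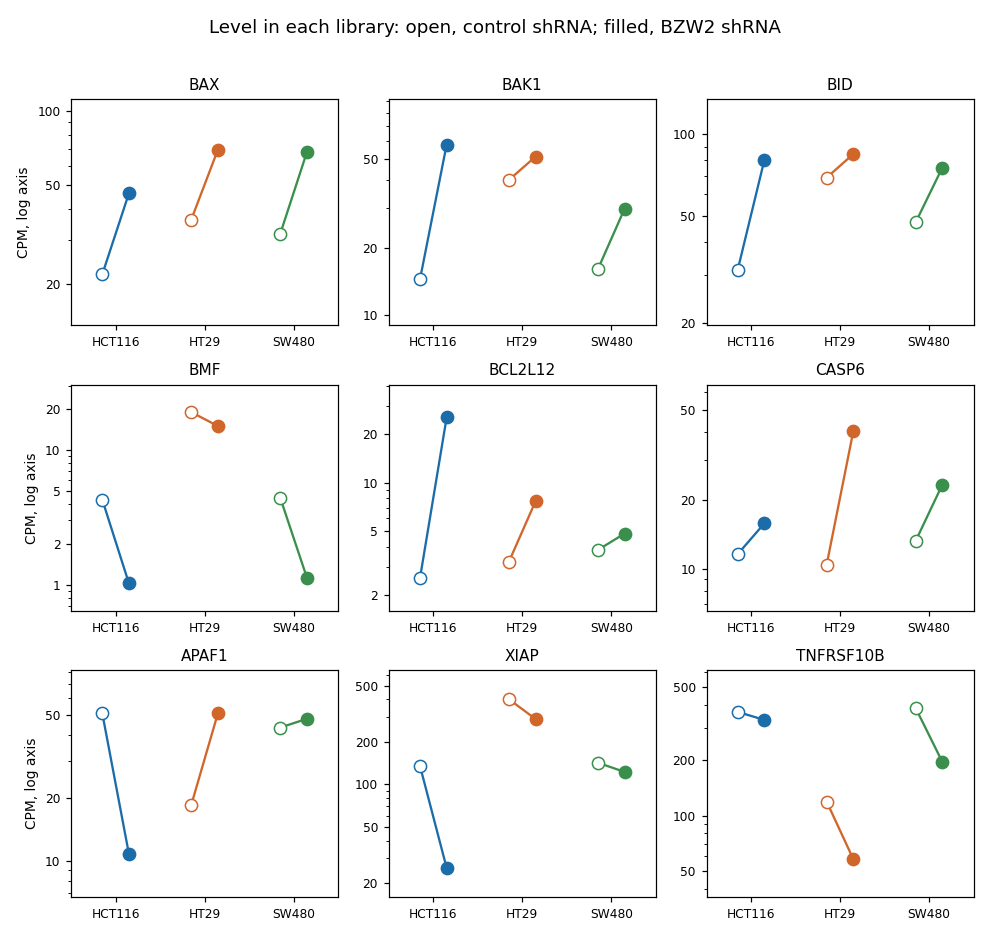
Level in CPM (log axis) in the control and knockdown library of each cell line for 9 members, joined by a line within each cell line. BAX was higher and BMF lower in every knockdown library than in its own control, while APAF1 was lower in HCT116 and higher in HT29.

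The pro-survival BCL2 proteins, which bind and neutralise pore formers and BH3-only proteins, were represented by BCL2L1, BCL2L2 and MCL1. BCL2L1 (BCL-xL) went from 51.9 to 58.2 CPM in HCT116, from 63.8 to 57.5 in HT29 and from 57.0 to 95.6 in SW480. MCL1, a short-lived protein that guards BAK1, went from 198 to 234 CPM in HCT116, from 475 to 422 in HT29 and from 276 to 246 in SW480. The direction differed between lines for both, and each HCT116 ratio turned negative under library size scaling (-0.15 for BCL2L1 and -0.08 for MCL1). The log2 fold changes were 0.29 (SE 0.38) for BCL2L1, 0.05 (SE 0.41) for BCL2L2 and 0.00 (SE 0.35) for MCL1. In control libraries, per kilobase of the longest transcript, MCL1 was the highest of the 3, at 50.3 CPM per kb in HCT116, 121 in HT29 and 70.1 in SW480. BCL2L1 followed at 19.9, 24.4 and 21.8, and BCL2L2 (BCL-w) was lowest at 6.38, 11 and 7.35.

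Set against each other, BAX was higher relative to BCL2L1 in each line. In HCT116, HT29 and SW480 the BAX log2 ratio exceeded that of BCL2L1 by 0.90, 1.08 and 0.35. The difference between BAX and MCL1 was 0.83, 1.10 and 1.25, and it was -0.39, 0.87 and 1.22 after the GC and length correction. The BAX to MCL1 difference in HCT116 therefore changed sign with the correction, while both differences in HT29 and SW480 kept theirs. These differences were not tested.

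The 7 BH3-only genes, which trigger the mitochondrial route, did not share a direction. BID, which caspase-8 cuts to link the receptor route to mitochondria, was highest by log2 fold change at 0.80 (SE 0.39; adjusted limma p 0.384), and at 0.51 without HCT116. It went from 31.4 to 80.2 CPM in HCT116, from 69.0 to 84.5 in HT29 and from 47.2 to 75.2 in SW480. BAD, which neutralises BCL2L1, was higher in all 3 lines with ratios of 0.80, 0.68 and 0.37, but its HCT116 ratio was -0.28 after the correction. It shares 14643 bases with GPR137 on the opposite strand, whose ratios were 3.32, 0.36 and 0.38. BIK, found mainly at the endoplasmic reticulum, was higher in HCT116 (1.49) and SW480 (0.53), and in HT29 it had only 25 and 22 reads.

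BMF and BCL2L11 were lower in all 3 lines. BMF, a BH3-only protein held at the actin cytoskeleton until cells detach, went from 27 to 2 reads in HCT116, from 178 to 135 in HT29 and from 22 to 7 in SW480. Knockdown stood at 0.239 times control (0.0275 to 0.949) in HCT116, 0.788 times (0.625 to 0.991) in HT29 and 0.255 times (0.0919 to 0.618) in SW480. The HCT116 and SW480 values rest on few reads, and the intervals show it. Across lines the estimate was -1.29 (SE 0.55; unadjusted limma p 0.0425, adjusted 0.359), and -1.55 after the GC and length correction. BCL2L11 (BIM), which binds all the pro-survival proteins, went from 42.8 to 22 CPM in HCT116, from 25.5 to 16.2 in HT29 and from 29.7 to 18.8 in SW480. Its log2 fold change was -0.72 (SE 0.40; adjusted limma p 0.416), with ratios of -0.95, -0.65 and -0.65.

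PMAIP1 (NOXA), which neutralises MCL1, went from 84.2 to 99.6 CPM in HCT116, from 35.2 to 19.4 in HT29 and from 93.7 to 141 in SW480. Its direction therefore differed between HT29 and SW480. HRK, a BH3-only gene best known in neurons, had 59 and 6 reads in HCT116 and 28 and 24 in SW480.

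BCL2L12 and BCL2L13 resemble BCL2 proteins but were placed on neither side. BCL2L12 had the largest log2 fold change of all members, 1.62 (SE 0.63; unadjusted limma p 0.0291, adjusted 0.344). It went from 16 to 50 reads in HCT116, from 30 to 69 in HT29 and from 19 to 30 in SW480. In CPM these were 2.54 to 25.5, 3.22 to 7.69 and 3.81 to 4.82, and all controls were low. The folds were 10.1 (5.64 to 18.9), 2.39 (1.53 to 3.80) and 1.26 (0.689 to 2.38), the last not separable from 1 by counting error. Without HCT116 the log2 fold change was 0.80. BCL2L12 shares 734 bases with IRF3 on the opposite strand, and IRF3 had ratios of 1.70, 0.54 and -0.31. Reads of the shared bases cannot be told apart without strand, which no source used here gives. BCL2L13, a mitochondrial outer membrane protein, went from 60 to 43.4 CPM, from 56.4 to 49.9 and from 68.4 to 56.1 in HCT116, HT29 and SW480. It was at -0.27 (SE 0.37) by log2 fold change, with ratios of -0.46, -0.17 and -0.29.

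Of the initiator caspases, which start the cascade, CASP2 was higher and CASP10 lower in all 3 lines. CASP2, activated through the PIDD1 complex, went from 37.8 to 96.1 CPM in HCT116, from 42.6 to 57.2 in HT29 and from 33.7 to 45.3 in SW480. Its log2 fold change was 0.76 (SE 0.40; adjusted limma p 0.397), 0.45 without HCT116 and 1.10 after the GC and length correction. CASP10, a relative of caspase-8 recruited by death receptors, went from 54 to 6 reads in HCT116, from 182 to 159 in HT29 and from 56 to 55 in SW480. On the CPM scale CASP10 stood at 35.8% of control (12.6 to 83.1) in HCT116, 90.7% (72.9 to 113) in HT29 and 78.7% (53.2 to 116) in SW480. The HT29 and SW480 values were not separable from control by counting error. The estimate across lines was -0.59 (SE 0.49), and -0.21 without HCT116. CASP8, the main caspase of the receptor route, had ratios of -0.76, -0.70 and 0.53 in HCT116, HT29 and SW480. CASP9, the caspase of the apoptosome, had ratios of 0.78, 0.22 and -0.58. CFLAR, CASP10 and CASP8 lie side by side over 171.6 kb of chromosome 2, and their directions differed: in HCT116 CFLAR had a ratio of 1.00 while CASP10 and CASP8 had negative ones.

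CASP6, a caspase that cuts nuclear lamins and can activate caspase-8, was higher in all 3 lines. It went from 11.6 to 15.8 CPM in HCT116, from 10.4 to 40.5 in HT29 and from 13.2 to 23.5 in SW480. The change was largest in HT29. The folds were 1.37 (0.868 to 2.11), 3.89 (3.10 to 4.91) and 1.77 (1.32 to 2.41). The log2 fold change was 1.10 (SE 0.47), with an unadjusted limma p of 0.0424 and an adjusted p of 0.359. Without HCT116 it was 1.41, and CASP6 was the 1 member called higher in that setting (adjusted limma p 0.0431; 1.72% of all genes were called higher and 1.39% lower). Over all alternatives its adjusted p ran from 0.0215 to 1.00, and without HT29 its log2 fold change was 0.67. CASP6 shares 105 bases with MCUB on the opposite strand, whose ratios were -0.44, 1.29 and 0.84. CASP4, an inflammatory caspase that senses bacterial lipopolysaccharide, went from 30.1 to 10.2 CPM in HCT116, from 209 to 137 in HT29 and from 30.7 to 46.1 in SW480, so its direction differed between lines.

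Among the genes of mitochondrial release and the apoptosome, APAF1 had opposite directions in 2 lines. APAF1, the scaffold of the apoptosome, went from 50.8 to 10.7 CPM in HCT116, from 18.5 to 50.8 in HT29 and from 43.3 to 47.7 in SW480. It stood at 21.1% of control (12.9 to 32.9) in HCT116, and the fold was 2.75 (2.31 to 3.30) in HT29 and 1.10 (0.921 to 1.32) in SW480. The log2 fold change of -0.17 (SE 0.63) became 0.83 without HCT116. CYCS, the cytochrome c gene, went from 351 to 196 CPM in HCT116, from 290 to 275 in HT29 and from 314 to 559 in SW480. HTRA2, a mitochondrial protease that binds inhibitor of apoptosis proteins after release, was higher in all 3 lines. It went from 28.9 to 68.5 CPM, from 17.2 to 22.6 and from 27.3 to 32.8. Its log2 fold change was 0.67 (SE 0.42), 0.36 without HCT116 and 0.19 after the GC and length correction. HTRA2 shares bases on the opposite strand with AUP1, with ratios of 1.83, 0.51 and 0.34, and with LOXL3, with ratios of 2.52, 0.92 and -0.15. DIABLO (SMAC), released with it, had ratios of 0.77, -0.23 and -0.56.

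The 3 inhibitor of apoptosis genes were lower in all 3 lines under TMM scaling, except that BIRC2 in SW480 was at 154 against 155 CPM, and its ratio was 0.05 under library size scaling and 0.02 under the deposited scaling. XIAP, which binds and blocks caspases directly, went from 135 to 25.5 CPM in HCT116, from 401 to 290 in HT29 and from 142 to 122 in SW480. BIRC2 (cIAP1), a ubiquitin ligase of the TNF receptor complex, went from 117 to 20.9 CPM in HCT116 and from 122 to 70.6 in HT29. BIRC6, a very large ubiquitin-conjugating inhibitor, went from 460 to 264 CPM in HCT116, from 827 to 637 in HT29 and from 554 to 480 in SW480. HCT116 held the largest differences, with XIAP at 18.9% of control (13.9 to 25.1) and BIRC2 at 18.0% (12.8 to 24.6). The log2 fold changes were -0.99 (SE 0.47) for XIAP, -1.05 (SE 0.49) for BIRC2 and -0.43 (SE 0.36) for BIRC6. Adjusted limma p values were 0.380, 0.376 and 0.556. Without HCT116 the estimates were -0.31, -0.37 and -0.26. After the GC and length correction they were -0.25, -0.49 and 0.23, so that of BIRC6 changed sign.

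The receptors for TRAIL, a death ligand, differed in direction. TNFRSF10A (TRAIL-R1) was higher in all 3 lines, from 76.9 to 142 CPM in HCT116, from 26.2 to 31.3 in HT29 and from 79.3 to 101 in SW480. TNFRSF10B (TRAIL-R2) was lower in all 3, from 366 to 331 CPM, from 119 to 57.9 and from 384 to 195. It stood at 90.4% of control (82.7 to 98.7) in HCT116, 48.6% (43.7 to 54.0) in HT29 and 50.9% (47.4 to 54.8) in SW480. The log2 fold change was 0.53 (SE 0.37; 0.33 without HCT116) for TNFRSF10A and -0.68 (SE 0.37; adjusted limma p 0.409) for TNFRSF10B. With the GC and length correction and without HCT116, TNFRSF10B was at -0.98 with an adjusted limma p of 0.0162, in a range over all alternatives from 0.0162 to 1.00. In that setting BAX and CASP6 were the 2 members called higher (3.48% of all genes were called higher) and TNFRSF10B the 1 called lower (2.83%). With the correction in all 3 lines 0 members were called, against 0.0184% of all genes in either direction. TNFRSF1A, the main receptor for TNF, had ratios of 0.99, -0.25 and -0.06.

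FADD, the adaptor that joins death receptors to caspase-8, had the largest log2 fold change among the receptor adaptors and regulators, 0.83 (SE 0.42; adjusted limma p 0.390). It was 0.42 without HCT116 and 0.39 after the GC and length correction, under which CFLAR was the largest. It went from 28.1 to 85.8 CPM in HCT116, from 56.7 to 70.7 in HT29 and from 34.5 to 47.9 in SW480. TRADD, the adaptor of the TNF receptor, was higher in all 3 lines with ratios of 1.09, 0.42 and 0.09, although its HCT116 ratio was -0.11 after the correction. RIPK1, a kinase that passes TNF signals to survival or death, had the smallest log2 fold change of the group, 0.19 (SE 0.40). It went from 24.4 to 28.1 CPM, from 46.8 to 38.1 and from 31.7 to 46.6 in HCT116, HT29 and SW480. CFLAR (c-FLIP), which holds back caspase-8, went from 26.0 to 52.6 CPM, from 80.4 to 67.3 and from 30.5 to 59.1. Its log2 fold change was 0.60 (SE 0.42; adjusted limma p 0.485), 0.38 without HCT116 and 1.18 after the correction.

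By side, the pro-death median lay above the pro-survival median across lines and in each line. Of 21 pro-death members listed in all 3 lines, 15 had a positive and 6 a negative log2 fold change, with a median of 0.47, where 51.1% of all genes were positive. Of these, 10 were higher (47.6%, against 22.3% of all genes) and 4 lower (19%, against 21.1%) in all 3 lines. After the GC and length correction BOK and BAD left the 10 and CYCS joined, while the 4 stayed lower. Under that correction 28.1% of all genes were higher and 16.9% lower in all 3 lines. Of 7 pro-survival members, 4 were positive and 3 negative, with a median of 0.00. In all 3 lines 0 were higher and 3 were lower (42.9%, against 21.1%) under TMM scaling, with BIRC2 at only -0.01 in SW480. After the GC and length correction CFLAR was higher in all 3 lines, with 2.26, 0.07 and 1.27 in HCT116, HT29 and SW480. BIRC6 left the lower group, with 0.63 in HCT116 and 0.12 in SW480. In HCT116, HT29 and SW480 the median log2 ratio of the pro-death members was 0.77, 0.22 and 0.36. The pro-survival median was 0.06, -0.38 and -0.01 in the same order, beside -0.08, 0.01 and -0.01 for all genes. In HT29 all 7 pro-survival members had negative ratios under TMM scaling, from -0.79 to -0.15, where the median of all genes was 0.01. The share of all genes with a negative ratio in HT29 is not given here. After the GC and length correction 1 of the 7 was higher and 6 were lower, from -0.45 to 0.07. After the GC and length correction the pro-death medians were 0.27, 0.16 and 0.34 and the pro-survival medians -0.39, -0.09 and 0.12, beside 0.11, 0.07 and 0.05 for all genes. The difference between the sides was not tested, since members are not replicates. The members were chosen with earlier results of these data known, so their shares beside those of all genes are descriptions only.

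**Figure D3:**
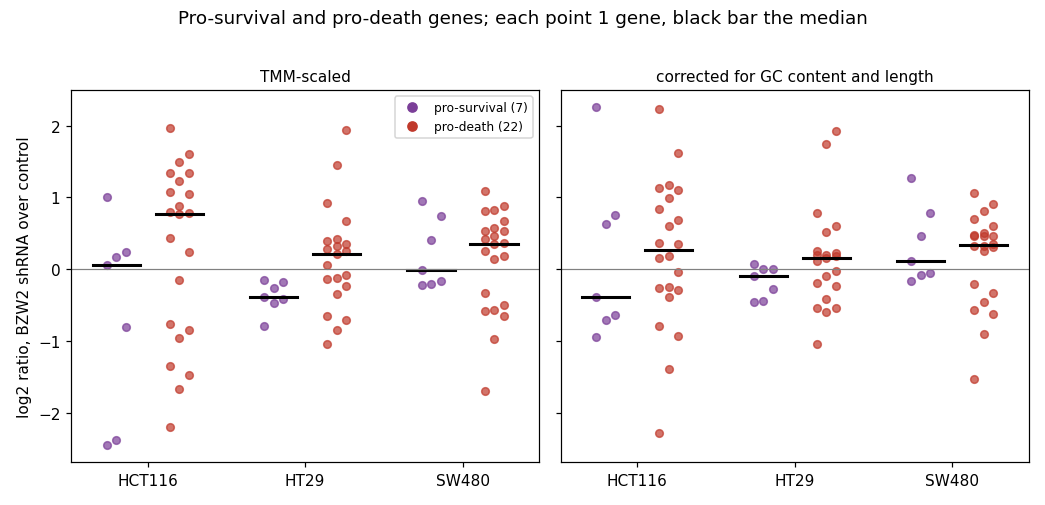
Log2 ratio of knockdown over control of each pro-survival and pro-death member in each cell line. Black bars are the median of each side, and the grey line is at 0. The left panel is TMM-scaled, and the right panel is corrected for GC content and length. In the left panel the 7 pro-survival points of HT29 lie at or below -0.15, and in the right panel they run from -0.45 to 0.07. The pro-death median lies above the pro-survival median in each line in both panels.

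Ratios varied with base composition in HCT116 and HT29. Across the 35 members in HCT116, Spearman's rho between the log2 ratio and the GC percent of the longest transcript was 0.636, and over all 11950 listed genes it was 0.659. It was 0.513 over 34 members and 0.311 over all genes in HT29, and 0.005 and -0.063 in SW480. With transcript length rho was -0.668, -0.444 and -0.442 over members in the 3 lines, against -0.262, -0.203 and -0.14 over all genes. These are descriptions across genes that share the same 2 libraries, and genes are not independent replicates. The pro-death members had a median GC of 49.8% (37.2 to 66.3) and the pro-survival members 44.1% (38.0 to 56.9). XIAP (39.0%) and BIRC2 (38.0%) were among the lowest, and BAX (58.9%) and BAK1 (58.8%) among the high values. The part of composition in the ratios was measured only through the correction, which fits the ratio of all genes in a line on GC and length and takes the fitted part away.

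**Figure D4:**
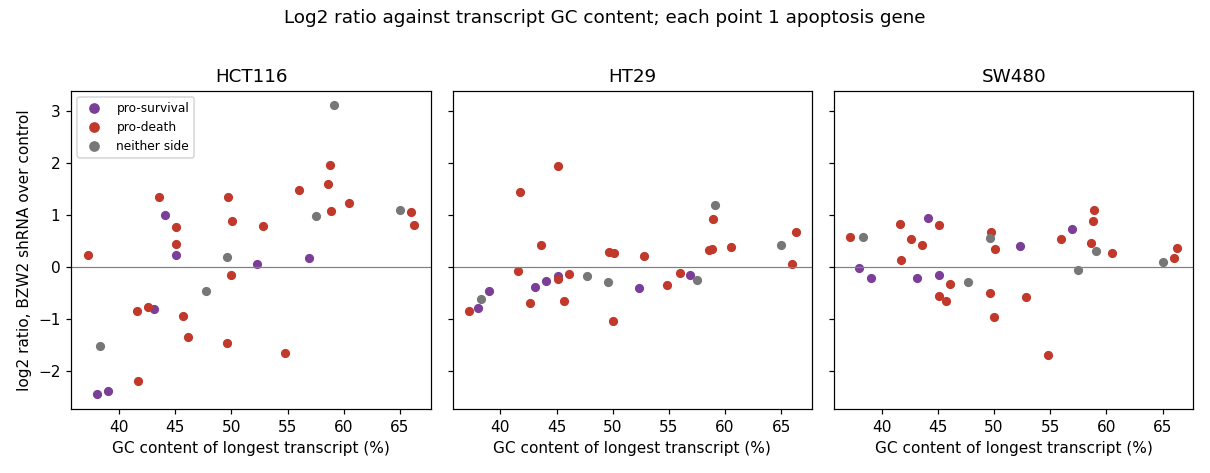
Log2 ratio of knockdown over control against the GC percent of the longest transcript for each member, 1 panel per cell line. Ratios are higher at high GC in HCT116 (rho 0.636) and HT29 (rho 0.513), and SW480 shows no such slope (rho 0.005).

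Other genes of the apoptosis pathway came from a list of 55, of which 42 had a row and 37 were tested. In limma 0 passed the adjusted threshold, 7 were higher at an unadjusted p under 0.05 (18.9%, against 6.59% of all genes) and 2 were lower (5.4%, against 7.04%). In all 3 lines 14 were higher (37.8%, against 22.3% of all genes) and 8 lower (21.6%, against 21.1%). BIRC5 (survivin), a mitotic protein also classed with the inhibitors of apoptosis, went from 60.3 to 180 CPM in HCT116, from 51.4 to 148 in HT29 and from 84.3 to 316 in SW480. Its log2 fold change was 1.71 (SE 0.35; adjusted limma p 0.25), opposite in sign to XIAP, BIRC2 and BIRC6. BIRC5 passed the adjusted threshold in DESeq2 (adjusted p 0.00657, where 2.24% of all genes passed) and in limma without HCT116 (adjusted p 0.00577), in a range over alternatives from 0.000521 to 1.00. The other 6 were TRAF2 (1.30), MLKL (1.07), AIFM1 (0.86), ENDOG (1.16), DFFB (1.10) and PARP1 (0.90), each as a log2 fold change. BNIP3L, a mitophagy receptor, was lower at -2.27 (SE 0.49; adjusted limma p 0.25). It passed in DESeq2 (adjusted p 0.00322) and in limma without HCT116 (0.00966) or without SW480 (0.0189, where 1.26% of all genes passed), in a range from 0.00104 to 1.00. BIRC3 (cIAP2), the neighbour of BIRC2 on chromosome 11, was lower at -2.08 (SE 0.70), going from 41.1 to 2.04 CPM in HCT116, from 34.0 to 6.80 in HT29 and from 49.0 to 52.6 in SW480. Without SW480 its adjusted limma p was 0.0128, in a range over alternatives from 0.0128 to 1.00. With the GC and length correction and without HCT116, BIRC5, BNIP3L and FAS, a death receptor, passed in limma. In that setting 3.48% of all genes were called higher and 2.83% lower.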

How the data were processed

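RNA was sequenced in 6 libraries, and groups came from the treatment label. Per the submitters' processing notes, the tools were bcl2fastq 2.17, STAR 2.5.2b and DESeq, on GRCh38; the gene counter, annotation and strandedness were not given in the sources used here. The deposited table holds normalised signal, and its values behave as gene read counts that the authors divided by a size factor set within each line. Dividing each column by its step gave whole reads for 100% of values within 0.1 read; the smallest value of the SW480 control stood for 2 reads. Of 13040 identifiers, 19 were repeated and left out. Coordinates, length and GC are from GENCODE 29.

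The members and lists were chosen with earlier results of these data known. The main test was limma 3.58.1 (R 4.3.3) on log2 of value plus 1, which understates the change of low genes, with cell line and treatment as terms. Tests were two-sided, with Benjamini-Hochberg adjustment over 10875 genes. The filter, at least 3 libraries with a value of 1 or more, removed 0 genes. The labels speak of no repeat cultures, so the only spread is that among 3 lines, with 2 residual degrees of freedom. The empirical Bayes step of limma adds 7.26 prior degrees of freedom drawn from all genes. An SE or p-value of limma therefore does not measure the spread of that gene alone. Libraries are paired by cell line, and their deviations from group means correlated at 0.28, 0.75 and 0.45 in HCT116, HT29 and SW480. The HCT116 control correlated more with the SW480 knockdown (0.38) than with its own knockdown. The HCT116 knockdown correlated at 0.23 with the SW480 control. Within a line there is 1 library per treatment and no test; ratios are TMM-scaled CPM from recovered reads (edgeR 4.0.16, prior count 2). Alternatives included edgeR, limma-voom and DESeq2 1.42.0 on recovered reads, other scalings, a loess correction for GC and length, and leaving out each line; that correction without HCT116, and the E-box motif, were added after seeing the data. The procedure was also run on simulated counts in which each changed gene had the same fold in every line. That simulation held no line-specific response and no GC trend, so it does not cover those features of the data.

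Every library's value is given for members with an unadjusted p under 0.05 and 1 direction in all 3 lines, past 2-fold in at least 2 lines, or with the largest or smallest log2 fold change of their role. Values of XIAP, BCL2L11, PMAIP1, CYCS, CFLAR and HRK, and the name of FAS, were added after they were seen. No protein sequence was used here.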

Additional observations from a re-analysis of the deposited data

Results flagged for a closer look

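APAF1 is singled out because its log2 ratio of knockdown over control was 1.45 in HT29 and -2.19 in HCT116, each more than 2-fold with at least 5 CPM in the higher library. In HCT116 it had 320 and 21 reads in control and knockdown cells, and in HT29 172 and 456. The difference between the 2 lines was not tested, since each line had 1 library per treatment. After the GC and length correction the ratios were 1.75 in HT29 and -0.93 in HCT116. APAF1 overlaps ANKS1B on the opposite strand, which was listed in none of the lines. The part of composition or of the overlap in this difference was not tested.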

How the results depend on the processing

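The design has 1 library per line and treatment, so its precision is set by 3 lines, and in HCT116 also by the shallow knockdown library. The fit without the replicate block called 0 members, and its share of all genes is not given here. The fit with the block also called 0 members, and 0% of all genes. BZW2 was at -2.92 and passed the adjusted threshold with DESeq2 (-2.99), with GC and length correction and without HCT116 (-3.13), and without HCT116 or without SW480, but not without HT29 (-3.16 to -2.64 over the lines left out). Members called higher went from 0 to 1 without HCT116 (0 to 1 over the lines left out) and 2 with the correction too, and those called lower from 0 to 1 with both. Library size scaling, which moved the HCT116 median of all genes from -0.08 to -0.39, moved the HCT116 pro-survival median from 0.06 to -0.25 and the pro-death median from 0.77 to 0.46. The GC and length correction moved them to -0.39 and 0.27, and the HT29 pro-survival median from -0.38 to -0.09. Members past 2-fold in HCT116 went from 11 higher and 6 lower to 6 and 10 under library size scaling and to 7 and 1 under the correction, and the 1 higher in SW480 to 2 under each. The cause was not tested.

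Signs of log2 fold changes turned for 13 members, most of them near 0. With the correction in all lines they were -0.11 (BCL2L1), -0.17 (BCL2L2), -0.09 (BOK), -0.01 (CASP9), 0.10 (CASP4), 0.34 (APAF1), 0.23 (BIRC6) and -0.16 (TNFRSF1A). With it and without HCT116 they were -0.01 (BCL2L2), -0.14 (MCL1), -0.09 (PMAIP1), -0.16 (CASP9), 0.15 (CASP4), 1.00 (APAF1), -0.42 (DIABLO), 0.06 (BIRC6) and -0.24 (TNFRSF1A). On recovered reads with limma, edgeR, DESeq2 and limma-voom they were -0.05, -0.05, -0.04 and -0.05 for MCL1, -0.05, -0.05, -0.03 and -0.03 for CYCS, and -0.02, -0.04, -0.02 and -0.05 for DIABLO. PMAIP1 was at -0.03, -0.02 and -0.01 with the first 3, and BCL2L2 at -0.0010 with edgeR and -0.02 with limma-voom. Over the lines left out, they ranged from -0.14 to 0.27 (BCL2L2), -0.14 to 0.08 (MCL1), -0.27 to 0.45 (PMAIP1), -0.16 to 0.54 (CASP9), -1.03 to 0.02 (CASP4), -1.0 to 0.83 (APAF1), -0.42 to 0.40 (CYCS), -0.37 to 0.31 (DIABLO), -0.12 to 0.51 (TNFRSF1A) and -0.01 to 0.41 (RIPK1). Requiring 5 CPM in at least 3 libraries left out BMF and BCL2L12. Of the other single-gene values under alternatives, 459 kept their direction and side of the threshold and 4 came to pass it.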
